A study of Mus musculus with 4 samples.

Results

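These 10 genes encode ligands (Dll1, Dll3, Jag1), a ligand-receptor modifier (Lfng), receptors (Notch1, Notch2, Notch3) and target genes (Hes1, Hes5, Hey1) of the Notch pathway. They were chosen by name, with earlier results of these data known. Every probe set annotated to a single gene of that list was taken. This gave 17 probe sets of the 45101 on the array and 10 genes of 18194. Of the 10 genes, 4 were measured by a single probe set and 6 by more than 1. The samples were Rax::GFP- and Rax::GFP+ cells sorted at day 4.5 of SFEBq culture, a serum-free aggregate culture of mouse embryonic stem cells, here of 1 line that carries a green fluorescent reporter in the forebrain gene Rax. Each group was measured on 2 arrays, labelled as duplicates, and the RNA of each came from many pooled aggregates. Both groups carry the reporter, and no drug or mutation separates them. They differ in reporter signal at the sort, so the GFP- sample holds every sorted cell without the signal, whatever its type.

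Notch signaling passes between neighbouring cells. A Delta or Jagged ligand on one cell binds a Notch receptor on the next, the receptor is cut, and its intracellular part enters the nucleus, joins the DNA-binding protein Rbpj and turns on Hes and Hey genes. In the embryonic neural plate the Hes repressors keep cells as progenitors by holding down proneural genes and Delta ligands.

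The sort and the cell make-up were checked first. Rax had log2 values of 8.58 and 8.88 in GFP- cells, against 10.70 and 10.86 in GFP+ cells, and Irx3, a caudal marker, had 9.67 and 8.95 in GFP- cells, against 6.88 and 6.57 in GFP+ cells. Rax RNA thus remained well above the array medians (5.84 to 5.89) in the GFP- cells. Of 8 pluripotency markers, 7 were higher in GFP- cells, and their summed linear signal was 10650 to 11159 there, against 1656 to 1738 in GFP+ cells. Of 8 endoderm markers, 7 were higher in GFP- cells, with summed signals of 4161 to 4889, against 823 to 1101 in GFP+ cells. Of 8 neural progenitor markers, 4 were lower and 1 was higher in GFP- cells, with summed signals of 13879 to 14657 there and 20365 to 20473 in GFP+ cells. No marker of these 3 lists lay below the median of every array, and RMA values have no 0. Of 7 rostral markers 6 were lower, and of 7 caudal neural and 7 mesoderm markers 4 and 1 were higher in GFP- cells. By value alone, log2 differences (GFP- minus GFP+) ran from -2.05 to -0.57 for rostral and from 0.30 to 2.59 for caudal neural markers. They ran from 0.26 to 3.51 for pluripotency and from 0.90 to 3.09 for endoderm markers. For mesoderm (-0.08 to 2.48) and neural progenitor markers (-1.45 to 2.58) they fell on both sides of 0. The part of this cell make-up in the Notch results was not tested, and in such bulk samples fewer expressing cells and less RNA per cell cannot be told apart.

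Hes5, Hes1, Dll1 and Lfng were lower in the GFP- cells, Dll3 was higher, and the receptors, Jag1 and Hey1 did not pass the test. By limma, fitted on all probe sets with Benjamini-Hochberg adjustment, 6 of the 17 probe sets had an adjusted p under 0.05, where 7.47% of all probe sets did. Of these, 5 were lower in GFP- cells (3.82% of all probe sets were) and 1 was higher (3.64% of all probe sets were). With the most expressed probe set standing for each gene, 4 of the 10 genes were lower (2.63% of all genes) and 1 was higher (5.4% of all genes). The median log2 difference of the 10 genes, GFP- minus GFP+, was -0.33, against 0.05 for all genes. The groups did not overlap at 15 of the 17 probe sets, against 57.3% of all probe sets. GFP- cells were lower at 13 of these (24.9% of all probe sets) and higher at 2 (32.5% of all probe sets). By their most expressed probe sets, all 10 genes had groups that did not overlap, where 60.1% of all genes did, with 8 lower in GFP- cells (21.7% of all genes) and 2 higher (38.4% of all genes). Since the 10 genes were chosen with earlier results of these data known, these shares and medians describe them and are no test of the list. With 2 arrays in each group, the smallest p of an exact permutation test is 0.333, so every call rests on the spread that limma shares across probe sets.

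**Figure D1:**
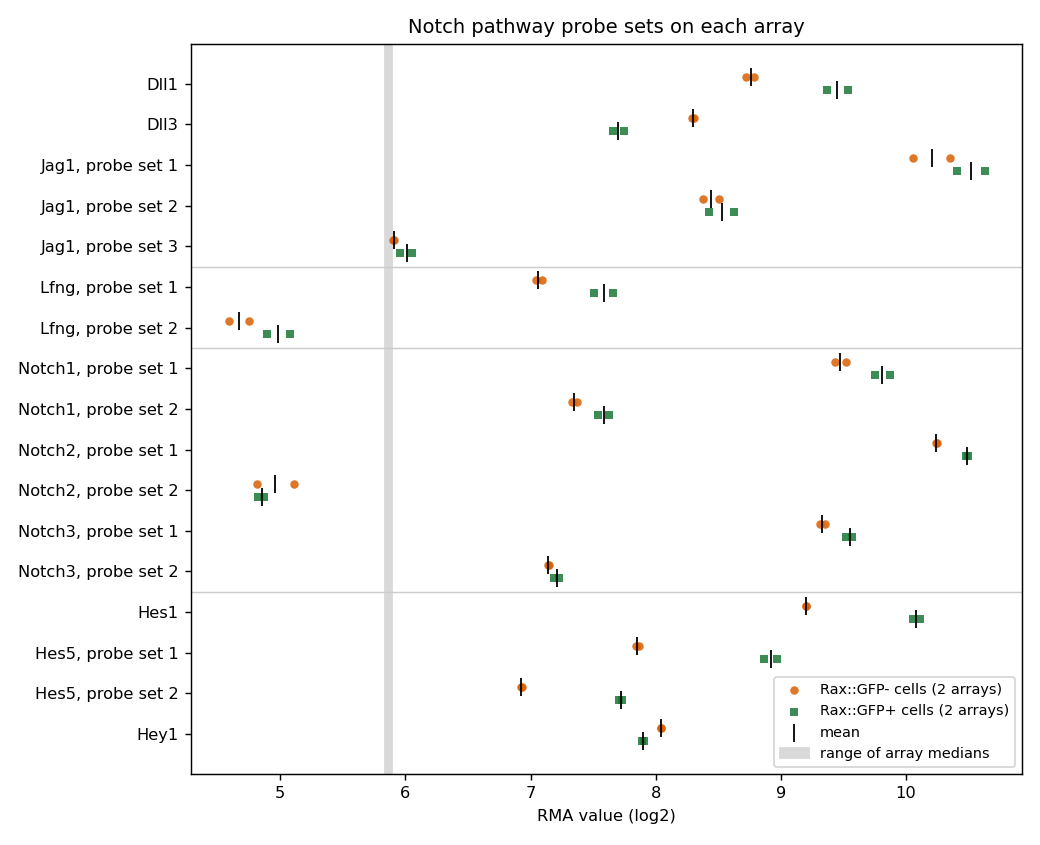
RMA value (log2, x axis) of each of the 17 probe sets (y axis, ligands, modifier, receptors and targets from top to bottom) on each array, with orange circles for Rax::GFP- cells above green squares for Rax::GFP+ cells and black bars for the means of 2 arrays. The Hes1 circles lie at 9.20 and its squares at 10.06 and 10.11, and the grey band marks the array medians of 5.84 to 5.89, which only the dimmer probe sets of Lfng and Notch2 lie below on every array.

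Dll1 and Dll3, a pair of Delta-like ligand genes, went in opposite directions. Dll1 encodes a ligand that activates Notch in neighbouring cells. It had log2 values of 8.72 and 8.79 in GFP- cells, against 9.54 and 9.37 in GFP+ cells. Both GFP- arrays lay below both GFP+ arrays, and the gap of 0.57 between the groups was wider than the 0.07 between the GFP- arrays or the 0.17 between the GFP+ arrays. Dll1 thus differed by -0.69 on the log2 scale (standard error 0.09, 95% interval -0.94 to -0.45, adjusted p = 0.0281), or 1.62-fold lower in GFP- cells. Dll3 encodes a divergent ligand that is known, in the mouse, mainly for acting inside its own cell and for somite formation. It had 8.29 and 8.31 in GFP- cells, against 7.75 and 7.66 in GFP+ cells. Its groups did not overlap either, but here the GFP- arrays were the higher ones. Dll3 thus differed by 0.60 on the log2 scale (standard error 0.08, 95% interval 0.40 to 0.80, adjusted p = 0.0253), or 1.51-fold higher in GFP- cells.

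The gap between the log2 values of Dll1 and Dll3 was followed on each array, since a shift of a whole array cancels in it. It was 0.43 and 0.48 in GFP- cells, against 1.79 and 1.71 in GFP+ cells, a change of -1.29. This restates the differences of both genes, which were known to run in opposite directions, and is given as a description. An exact permutation test of it gave p = 0.333, the smallest possible with 2 arrays in each group, and so decides nothing.

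Jag1, which encodes the other canonical kind of ligand, did not pass at any of its 3 probe sets. The most expressed one had log2 values of 10.35 and 10.06 in GFP- cells, against 10.63 and 10.41 in GFP+ cells. The higher GFP- array came within 0.06 of the lower GFP+ array, and the duplicates of each group stood 0.29 and 0.22 apart, the widest such spread among the most expressed probe sets of these genes. The log2 difference was -0.32 (95% interval -0.69 to 0.05, adjusted p = 0.241). The other 2 Jag1 probe sets differed by -0.09 (adjusted p = 0.653), with groups that overlapped, and by -0.10 (adjusted p = 0.477). The interval of the most expressed probe set holds 0 and reaches -0.69, the size of the Dll1 difference.

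Lfng encodes Lunatic fringe, a glycosyltransferase of the Golgi that extends sugars on Notch receptors and makes them more responsive to Delta than to Jagged ligands. It had log2 values of 7.09 and 7.04 in GFP- cells, against 7.51 and 7.66 in GFP+ cells. The groups were 0.43 apart, and the duplicates differed by 0.05 in GFP- and 0.15 in GFP+ cells. Lfng thus differed by -0.53 on the log2 scale (standard error 0.09, 95% interval -0.76 to -0.30, adjusted p = 0.0419), or 1.44-fold lower in GFP- cells. This call was the closest to the threshold of the 6 and was lost when the median of each array was set to the same value (adjusted p = 0.0504) and after quantile normalization (0.0680). The other Lfng probe set, with signals below the median of every array, ran the same way at -0.31 (adjusted p = 0.157).

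Notch1, Notch2 and Notch3, the receptor genes, were each a little lower in GFP- cells by value at their most expressed probe sets, and none passed the test. Notch1, the main receptor of the early neural plate, had log2 values of 9.43 and 9.52 in GFP- cells, against 9.75 and 9.87 in GFP+ cells. Notch2 had 10.25 and 10.24 in GFP- cells, against 10.48 and 10.50 in GFP+ cells. Notch3 had 9.35 and 9.31 in GFP- cells, against 9.57 and 9.52 in GFP+ cells. In each of the 3 the groups did not overlap, and the duplicates differed by 0.12 or less. Groups did not overlap in 60.1% of all genes, and 21.7% of all genes were lower in GFP- cells in this way. The log2 differences were -0.33 for Notch1 (95% interval -0.56 to -0.11, adjusted p = 0.0936), -0.25 for Notch2 (-0.43 to -0.06, adjusted p = 0.112) and -0.21 for Notch3 (-0.41 to -0.02, adjusted p = 0.158). Those intervals exclude a difference as large as that of Hes1 or Hes5 for all 3 genes. With an intensity trend in the variance, Notch1 (adjusted p = 0.0234) and Notch2 (0.0175) passed. Their dimmer probe sets differed by -0.24 for Notch1 (adjusted p = 0.142), 0.11 for Notch2 (0.622) and -0.07 for Notch3 (0.614), and that of Notch2 lay below the array medians with overlapping groups.

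**Figure D2:**
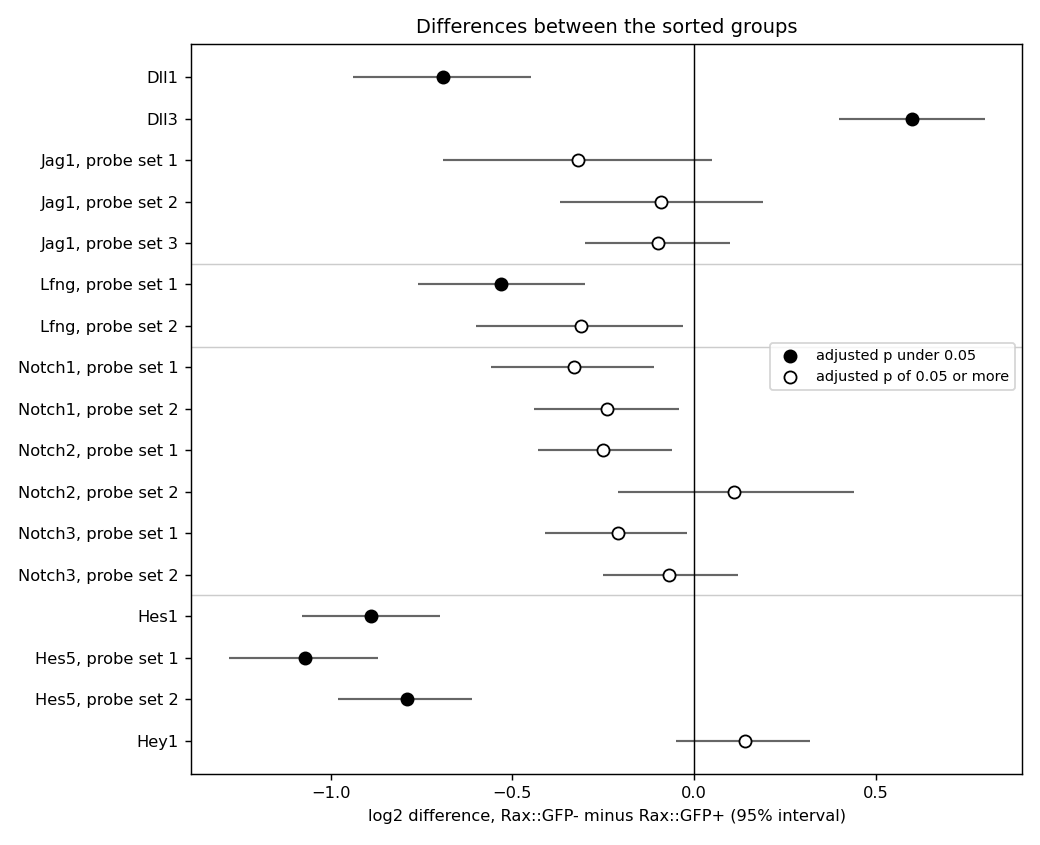
Log2 difference of Rax::GFP- minus Rax::GFP+ cells (x axis) for the 17 probe sets (y axis, in the order of the plot of array values), with 95% intervals from limma as bars. Filled circles have an adjusted p under 0.05, at 5 probe sets left of 0 and at Dll3 right of it, and the probe sets of Hes5 lie farthest left together with Hes1, at -1.07, -0.79 and -0.89.

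Hes1 and Hes5, which encode transcriptional repressors of the basic helix-loop-helix class and are direct targets of Notch, had the largest differences of the 10 genes. Hes5 was measured by a pair of probe sets. The more expressed had log2 values of 7.87 and 7.84 in GFP- cells, against 8.97 and 8.87 in GFP+ cells, and the less expressed had 6.92 and 6.93 in GFP- cells, against 7.73 and 7.71 in GFP+ cells. At both, the gap between the groups (1.01 and 0.78) was several times the spread of the duplicates, which was at most 0.10. The log2 differences were -1.07 (standard error 0.08, 95% interval -1.28 to -0.87, adjusted p = 0.00928) and -0.79 (standard error 0.07, 95% interval -0.98 to -0.61, adjusted p = 0.0127), or 2.10-fold and 1.73-fold lower in GFP- cells. The more expressed probe set is of a type (ID ending in _x_at) whose probes may also bind other transcripts. In size, 3.53% of all probe sets differed more than the more expressed Hes5 probe set and 6.16% more than the other.

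Hes1 had log2 values of 9.20 and 9.20 in GFP- cells, against 10.11 and 10.06 in GFP+ cells. The groups lay 0.86 apart. Hes1 thus differed by -0.89 on the log2 scale (standard error 0.07, 95% interval -1.08 to -0.70, adjusted p = 0.0111), or 1.85-fold lower in GFP- cells. Hey1, a repressor gene of the related Hey family and also a Notch target, had 8.04 and 8.04 in GFP- cells, against 7.91 and 7.89 in GFP+ cells. It thus lay higher in GFP- cells on both arrays, by a log2 difference of 0.14 (95% interval -0.05 to 0.32, adjusted p = 0.303) that did not pass. Its interval holds 0 and excludes a decrease of the size of either Hes gene.

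The gap between Hes1 and Hey1 on the log2 scale was 1.16 and 1.16 in GFP- cells, against 2.19 and 2.17 in GFP+ cells, a change of -1.02. That between Hes5, by its more expressed probe set, and Hey1 was -0.17 and -0.20 in GFP- cells, against 1.06 and 0.98 in GFP+ cells, a change of -1.21. Between the same Hes5 probe set and Hes1, by contrast, the gap changed by -0.18, with -1.33 and -1.36 in GFP- cells, against -1.14 and -1.19 in GFP+ cells. The less expressed Hes5 probe set differed by -0.79, a smaller decrease than the -0.89 of Hes1. The direction of this last change thus depends on the probe set. These changes in the gaps likewise restate the differences above. The exact permutation test gave p = 0.333 for each, the smallest possible, and so decides nothing here either.

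How far the calls of these genes rested on single arrays was seen by leaving out each in turn. Without GFP+ replicate 1, only the more expressed Hes5 probe set passed (adjusted p = 0.0432), and without GFP+ replicate 2, Dll1 (0.0376), Hes1 (0.0276) and both Hes5 probe sets (0.0224 and 0.0329) passed. Without either GFP- array 0 probe sets of the whole table passed limma, with 7704 and 7697 of them, and 7 of the 17 each time, at an unadjusted p under 0.05. The log2 differences themselves moved little over these 4 subsets, from -1.12 to -1.02 for the more expressed Hes5 probe set, from -0.91 to -0.86 for Hes1, from -0.78 to -0.61 for Dll1, from -0.60 to -0.45 for Lfng and from 0.55 to 0.64 for Dll3.

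**Figure D3:**
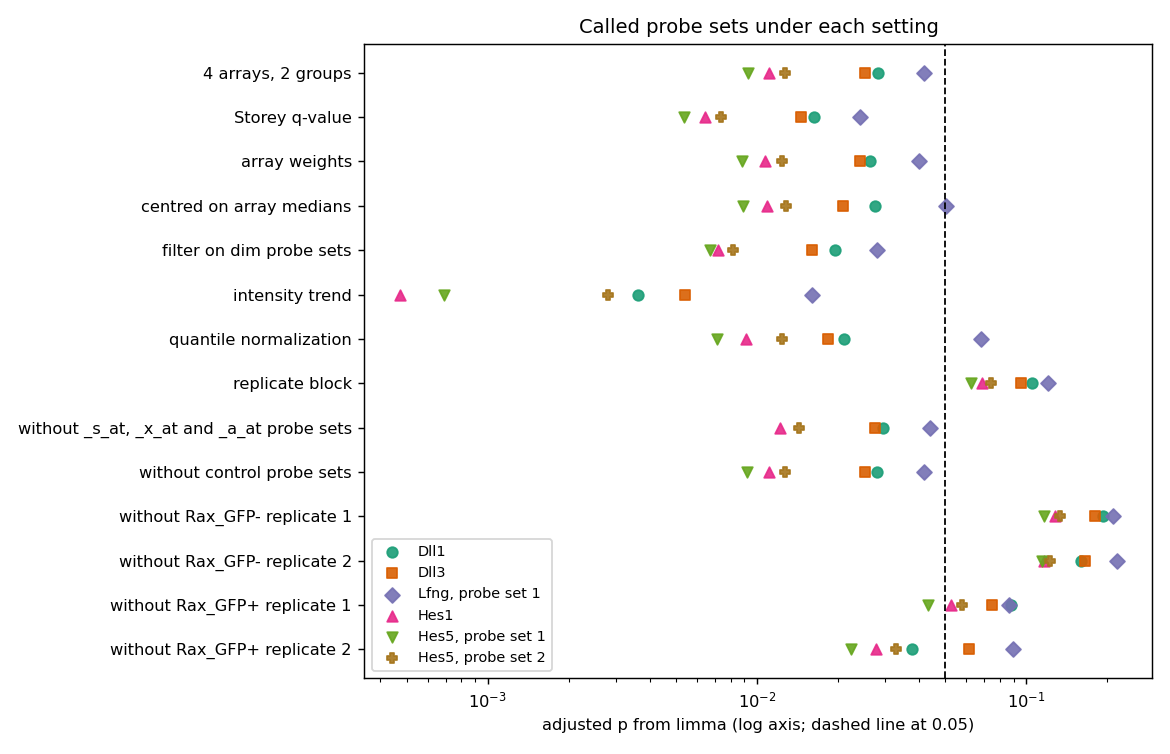
Adjusted p from limma (x axis, log scale, dashed line at 0.05) of the 6 called probe sets under the fit of all 4 arrays and each alternative setting (y axis), with 1 symbol and colour per probe set. Hes5 and Hes1 stay left of the line in most settings, all symbols lie right of it with the replicate number as a block or without a GFP- array, and Lfng also crosses it after centring (0.0504) and quantile normalization (0.0680).

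The DNA just upstream of the start sites is shown for Hes5 and Lfng, which were lower in GFP- cells and hold the letters that Rbpj is known to bind. Dll1, which was also lower, does not hold these letters in its windows and is not shown. Dll3, which was higher, is shown as a comparison. The sequences are the 250 bases before the start in the RefSeq annotation of GRCm38.p6, 5′ to 3′ on the strand of the gene. Capitals mark TGGGAA, the core of the Rbpj motif, or TTCCCA, the same letters on the other strand. The windows are chr4:154960673-154960922 (plus strand) for Hes5, chr5:140607091-140607340 (plus strand) for Lfng and chr7:28301786-28302035 (minus strand) for Dll3.
Hes5: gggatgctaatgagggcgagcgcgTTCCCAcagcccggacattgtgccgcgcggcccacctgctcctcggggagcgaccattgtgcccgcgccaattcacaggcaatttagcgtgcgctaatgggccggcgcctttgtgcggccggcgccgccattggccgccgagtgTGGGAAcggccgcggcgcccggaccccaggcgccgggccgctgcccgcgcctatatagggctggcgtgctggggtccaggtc
Lfng: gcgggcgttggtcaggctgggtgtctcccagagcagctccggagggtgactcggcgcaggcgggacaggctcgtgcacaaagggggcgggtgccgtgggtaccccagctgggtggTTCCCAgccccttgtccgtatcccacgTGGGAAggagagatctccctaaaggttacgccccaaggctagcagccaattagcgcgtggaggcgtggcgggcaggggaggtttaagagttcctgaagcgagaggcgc
Dll3: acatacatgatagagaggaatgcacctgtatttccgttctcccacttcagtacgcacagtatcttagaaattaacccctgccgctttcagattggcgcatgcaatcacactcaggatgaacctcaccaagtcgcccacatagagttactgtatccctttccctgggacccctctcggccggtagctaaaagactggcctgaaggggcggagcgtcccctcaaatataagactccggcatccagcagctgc

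In the Hes5 window the matches began 226 and 82 bases before the start, and in the Lfng window 135 and 108 bases before it. Of the 10 genes, 8 were found in the promoter table, with 9 start sites, and Hes1 and Hey1 were not among them. TGGGAA on either strand was found at 2 of the 9 start sites, and 21.6% of the 32851 start sites in the table hold it in the same window. Thus for at least 1 match of this short form, the share among these genes was close to that of all genes. Those 2 start sites, of Hes5 and Lfng, each held at least 2 matches, as did 2.77% of all start sites. The longer form GTGGGAA, which contains TGGGAA, matched at 2 places in the Hes5 window and at 1 in the Lfng window. It was thus found at 2 of the 9 start sites, against 5.42% of all start sites. None of these shares was tested. No match to either form was found in the windows of Dll1, Dll3, Jag1, Notch1, Notch2 or Notch3, which says only that these letters are not there.

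In the rest of the pathway few genes passed the test, in both directions. Of 78 genes in 8 further lists of pathway parts that had a probe set of their own, 6 passed as higher in GFP- cells and 3 as lower. These made up 11.5% of the 78, against 8.02% of all genes, and the median log2 difference was -0.04. With 11 proneural and neuronal genes added, 11 of 89 passed, a count that was 1 without GFP+ replicate 1, 3 without GFP+ replicate 2 and 0 without either GFP- array. Whether the share differs from that of the 10 genes was not tested.

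Among 10 further ligands and receptors, 1 was lower in GFP- cells (2.63% of all genes were) and none was higher (5.4% of all genes). It was Cntn1, a contactin gene of neuronal adhesion reported to bind Notch, with log2 values of 4.60 and 4.36 in GFP- cells, against 5.19 and 5.05 in GFP+ cells (difference -0.64, adjusted p = 0.0485), all below the array medians. Its other 2 probe sets, dimmer still, differed by 0.18 (adjusted p = 0.330) and -0.46 (adjusted p = 0.0651). Mfap2, which encodes a microfibril protein, differed by -0.35 (adjusted p = 0.0616), and Jag2, the second Jagged gene, by 0.22 (adjusted p = 0.180). Of 6 glycosyltransferases besides Lfng, 1 was higher in GFP- cells (5.4% of all genes were). This was Eogt, which adds N-acetylglucosamine to the extracellular part of Notch, with 7.00 and 7.18 in GFP- cells, against 6.42 and 6.51 in GFP+ cells (difference 0.62, adjusted p = 0.0378). Its other 2 probe sets differed by 0.76 (adjusted p = 0.0449) and 0.36 (adjusted p = 0.0791). Pofut1 and Poglut1, which add the first sugars to the receptor, differed by -0.06 (adjusted p = 0.772) and 0.05 (adjusted p = 0.735).

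None of 8 genes of ligand endocytosis and none of 8 proteases and gamma-secretase parts passed limma, where 8.02% of all genes did. In these lists, 1 and 3 genes had an unadjusted p under 0.05, as did 4700 of all 18194 genes. Mib1, the ubiquitin ligase that activates ligands, differed by -0.35 (adjusted p = 0.145). Adam10, the protease that makes the first cut in the bound receptor, differed by -0.46 (adjusted p = 0.0534). The groups did not overlap in either case, as in 60.1% of all genes. Among 14 genes of receptor trafficking and turnover, 1 was higher in GFP- cells (5.4% of all genes were) and none was lower. This was Dtx1, the Deltex gene whose product binds the intracellular part of Notch. It had 9.36 and 9.47 in GFP- cells, against 8.54 and 8.59 in GFP+ cells (difference 0.85, adjusted p = 0.0145), and thus ran opposite to Hes1 and Hes5. Its dimmer probe set differed by -0.16 (adjusted p = 0.484). Nrarp, a feedback inhibitor of Notch, was named after its values were seen and did not pass. It had 8.44 and 8.13 in GFP- cells, against 8.76 and 8.86 in GFP+ cells (difference -0.52, 95% interval -0.86 to -0.19, adjusted p = 0.0839).

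Of 8 genes of the nuclear complex, 1 was higher in GFP- cells (5.4% of all genes were). Kat2b, an acetyltransferase that joins the complex, had 8.49 and 8.72 in GFP- cells, against 7.59 and 7.43 in GFP+ cells (difference 1.09, adjusted p = 0.0187). Its dimmer probe sets differed by 0.60 (adjusted p = 0.0248) and 0.14 (adjusted p = 0.610). Rbpj itself, also named after its values were seen, had 10.15 and 10.12 in GFP- cells, against 10.31 and 10.27 in GFP+ cells (difference -0.16, 95% interval -0.34 to 0.03, adjusted p = 0.254). Of 16 corepressor genes, 2 lay higher in GFP- cells (5.4% of all genes did) and 2 lay lower (2.63% of all genes). Ctbp2 (difference 0.60, adjusted p = 0.0310, and 0.64, adjusted p = 0.0222, at its dimmer probe set) and Tle5 of the Groucho family (0.46, adjusted p = 0.0461) were higher, and Fhl1, one of whose protein forms binds Rbpj (-0.53, adjusted p = 0.0300), and Tle4, also of the Groucho family (-0.46, adjusted p = 0.0367), were lower. The dimmer probe set of Fhl1 differed by 0.04 (adjusted p = 0.803). A dimmer probe set of Tle4 differed by -1.40 (adjusted p = 0.0286) and a further one by -0.02 (adjusted p = 0.949). Of 8 other Hes, Hey and related genes, 1 was higher (5.4% of all genes were). This was Bhlhe40, with 7.29 and 6.94 in GFP- cells, against 6.10 and 5.98 in GFP+ cells (difference 1.07, adjusted p = 0.0278). Its product is a repressor of the same helix-loop-helix class, best known from hypoxia and the circadian clock. Hes6, whose product inhibits Hes1, differed by 0.33 (adjusted p = 0.158) and Hes7, a factor of the somite clock, by -0.12 (adjusted p = 0.424).

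**Figure D4:**
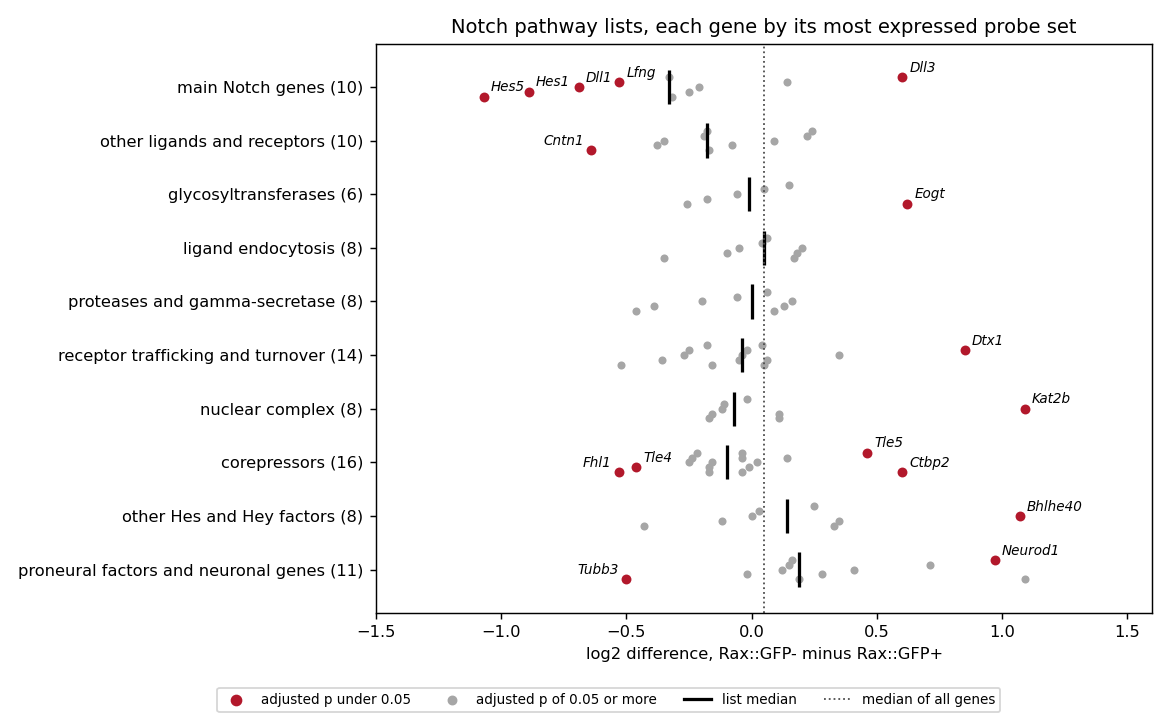
Log2 difference of Rax::GFP- minus Rax::GFP+ cells (x axis) for the genes of each list (y axis, number of measured genes in brackets), with the probe set of the highest mean standing for each gene. Red circles are genes with an adjusted p under 0.05, grey circles the others, black bars the list medians, from -0.33 for the 10 genes to 0.19 for proneural and neuronal genes, and the dotted line is the median of all genes at 0.05.

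The genes whose pattern was nearest to the strongest call in each direction were found by the distance between log2 values over the 4 arrays, each probe set centred on its own mean. Nearest to Hes5 were Plcb4 (distance 0.035), Nsd2 (0.038) and Vax1 (0.065), with log2 differences of -1.05, -1.04 and -1.01. Vax1 is a homeobox gene of the ventral forebrain and was among the rostral markers. Nearest to Dll3 were Kat2b, at a dimmer probe set than above (0.017), Bnip3 (0.02) and Lrp10 (0.025), with differences of 0.60, 0.60 and 0.59. With 4 arrays, 1 difference between the groups fixes most of such a pattern, and the distances describe likeness only.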

How the data were processed

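RNA of Rax::GFP- and Rax::GFP+ cells was measured on Affymetrix GeneChip Mouse Genome arrays, 2 per group, called biological duplicates in the study. The deposited values are on the log2 scale, 1 for each probe set on each array, and were summarized by RMA, which corrects background and makes the distributions of the arrays alike, so that the groups cannot be compared in total RNA. The submitters' processing notes name R 2.13.0. Values ran from 2.20 to 15.1.

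All 45101 probe sets, 64 controls included, were fitted as 2 groups with limma 3.58.1 in R 4.3.3 (2 residual and 2.52 prior degrees of freedom), with no filter and no block. Benjamini-Hochberg adjustment covered the whole table, and an adjusted p under 0.05 counted as passing. Differences are GFP- minus GFP+. The number of arrays limits the precision. The fit was tested on simulated data.

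Probe sets were named from the annotation of the platform, which gave a single symbol for 34958, several for 932 and none for 9211. No probe set with several symbols held one of the 10 genes, and all 10 matched the GRCm38.p6 gene table by symbol and gene ID. A gene was represented by its probe set with the highest mean. Summed signals are sums of 2 to the power of the log2 value over a list.

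Named are the 10 genes, of each further list up to 4 called genes with the largest difference and up to 2 highly expressed ones that did not pass, the 3 genes nearest in pattern to the strongest call in each direction, and Rax and Irx3. Nrarp, Rbpj and Neurog2 fall outside this rule and were named after their values were seen. The 10 genes, the lists and the tests were chosen with earlier results of these data known. As alternatives, the fit was run with replicate number as block, with q-values by Storey, with only probe sets that reached a log2 value of 5 on 2 or more arrays, and with centring, quantile normalization, an intensity trend, array weights, leaving out probe sets of shared types or controls, the mean of a gene's probe sets, and leaving out each array. Where a group kept 1 array, it was assumed to vary like the other.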

Additional observations from a re-analysis of the deposited data

How the results depend on the processing

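Of 217 log2 differences of the 17 probe sets over 13 alternatives, 186 kept their direction and side of the threshold, 27 lost the call, 2 gained it and 2 changed sign. Only the 6 called probe sets could lose a call, and the 11 that were not called could only gain one. The sign changes were of uncalled probe sets, a dimmer one of Jag1 (-0.19 to 0.01 with 1 array left out, above 0 without GFP+ replicate 1) and the dimmer one of Notch2 (-0.04 to 0.27, below 0 without GFP- replicate 2). The calls of the 10 genes, 6 probe sets and 5 genes, were within 1.5 times of these counts under every alternative other than the block and leaving out arrays. With the replicate number as a block, 0 probe sets passed limma in the whole table, and hence 0 of the 17 probe sets, 0 of the 10 genes and 0 of the 89 other genes (11019 of all and 10 of the 17 had an unadjusted p under 0.05). The deviations of same-numbered arrays had a correlation of -0.0514 over all probe sets, and the sources used here do not say whether a number marks a shared experiment, so the numbers were not taken to pair the arrays. Leaving out 1 array gave 0 to 2978 called probe sets, 0 to 4 of the 17, 0 to 3 of the 10 genes and 0 to 3 of the other genes, with 0 in each count without either GFP- array. The whole table had 3367 calls, 6134 with Storey's q-value and 6962 with an intensity trend. The 11 other pathway and proneural genes became 19 with Storey's q-value, 17 with the filter on dim probe sets and 26 with an intensity trend. The causes were not tested.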

Other observations

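Genes that the Hes repressors are known to hold down were measured in the same cells. Of 11 proneural and neuronal genes with a probe set of their own, 1 was higher (5.4% of all genes were) and 1 was lower (2.63% of all genes) in GFP- cells by limma, with a median log2 difference of 0.19 against 0.05 for all genes. Neurod1, a proneural factor gene, had log2 values of 6.40 and 6.44 in GFP- cells, against 5.53 and 5.36 in GFP+ cells (difference 0.97, adjusted p = 0.0146), and its dimmer probe set was also higher (0.83, adjusted p = 0.0224). Tubb3, a tubulin gene of neurons, had 8.36 and 8.39 in GFP- cells, against 8.84 and 8.91 in GFP+ cells (difference -0.50, adjusted p = 0.0344). Neurog2, named after its values were seen, had 6.52 and 5.89 in GFP- cells, against 5.16 and 5.07 in GFP+ cells, a difference of 1.09 that did not pass (adjusted p = 0.0615). Stmn2 and Elavl3, genes of differentiating neurons, differed by 0.41 (adjusted p = 0.0557) and 0.16 (adjusted p = 0.261).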
